A study of Rattus norvegicus with 2 samples.

Results

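The genes that build and move the cytoskeleton of the rat liver were compared between a fasted state and the hours after an oral fat load. They were the 175 genes whose symbols name actins, tubulins, keratins, tropomyosins, myosins, kinesins, dyneins and their closest binding partners, of 14217 genes represented on the arrays by a probe set of their own. The genes were picked by symbol, from probe sets annotated to exactly 1 gene, with earlier results of these data known. Each gene was represented by its probe set of highest mean signal. The rats were Wistar males, of an outbred strain, aged 2 months and weighing 250 to 300 g, and their liver RNA was hybridized to 2 Affymetrix rat expression arrays. All rats had been without food for 18 h. The fasted group got no fat, and the olive oil group was killed 4 h after 5 ml of extra virgin olive oil given as a bolus, a dose of 16 ml per kg. Each group was 1 array. How many livers it holds is not stated in the labels, nor whether the fasted rats were kept for the same further hours. Every difference below is therefore one between 2 arrays, with no replicate check, standard deviation or p-value. In whole liver, a change in the number of cells of a type and a change of RNA per cell cannot be told apart.

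Actin and tubulin are the globular proteins that assemble into filaments and microtubules. Actin filaments support the bile canaliculi, the microvilli and the cortex of hepatocytes, and myosins pull on them or carry cargo along them. Microtubules serve as tracks on which kinesins and dynein move vesicles, among them those that carry lipoproteins and plasma proteins to the cell surface. The keratins Krt8 and Krt18 form the intermediate filaments of hepatocytes, whereas other keratins belong to bile duct cells and to other epithelia.

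Signals are deposited intensities on a linear scale, and a gene was called measured when its log2 signal, averaged over the arrays, was no lower than the median of the probe sets, which corresponds to a signal of 41.4. Of the 175 genes, 92 were measured and 83 were not. Since probes differ in how well they bind, signals were compared between the arrays for one probe set and not between genes. The summed signals given for marker lists are an exception. They add different genes, so the brightest probe sets weigh most in them. A difference is the log2 signal of the olive oil array minus that of the fasted array, and a size of at least 1.5-fold was used to count genes, with no test.

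Tubb6, a beta-tubulin gene, had the largest difference of the 92 measured genes, 4.49-fold higher after olive oil on a probe set that passed the filter through that array, and the tropomyosin gene Tpm4 was 2.35-fold higher. Krt10, a keratin of stratified epithelia, was 2.66-fold lower, the nonmuscle myosin gene Myh14 2.39-fold lower and the beta-tubulin gene Tubb2a 2.21-fold lower. Of the 92 measured genes, 7 were higher by at least 1.5-fold, 12 were lower by as much, and 73 lay between. Among all 9208 measured genes, 9.46% were higher by at least 1.5-fold and 10.1% lower. Counts past 1.5-fold in the roles and marker lists below are to be read beside these shares. The cytoskeletal shares, 7.61% and 13.0%, were close to this background. The higher genes made up 36.8% of the cytoskeletal calls and 48.3% of those over all genes, and 26.3% and 37.4% when the array medians were set equal, with 5 genes higher and 14 lower. At the larger size of 2-fold, 4 genes were higher and 3 lower, against 3.25% and 2.94% of all measured genes. Among these, Tubb6, Dync2li1 and Myh14 were under 41.4 on 1 array and passed the filter through their higher array. The median log2 difference was -0.08 over the 92 genes and -0.01 over all measured genes, and 56 of the 92 differences were negative, or 60.9%, against 51.7% of all measured genes.

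**Figure D1:**
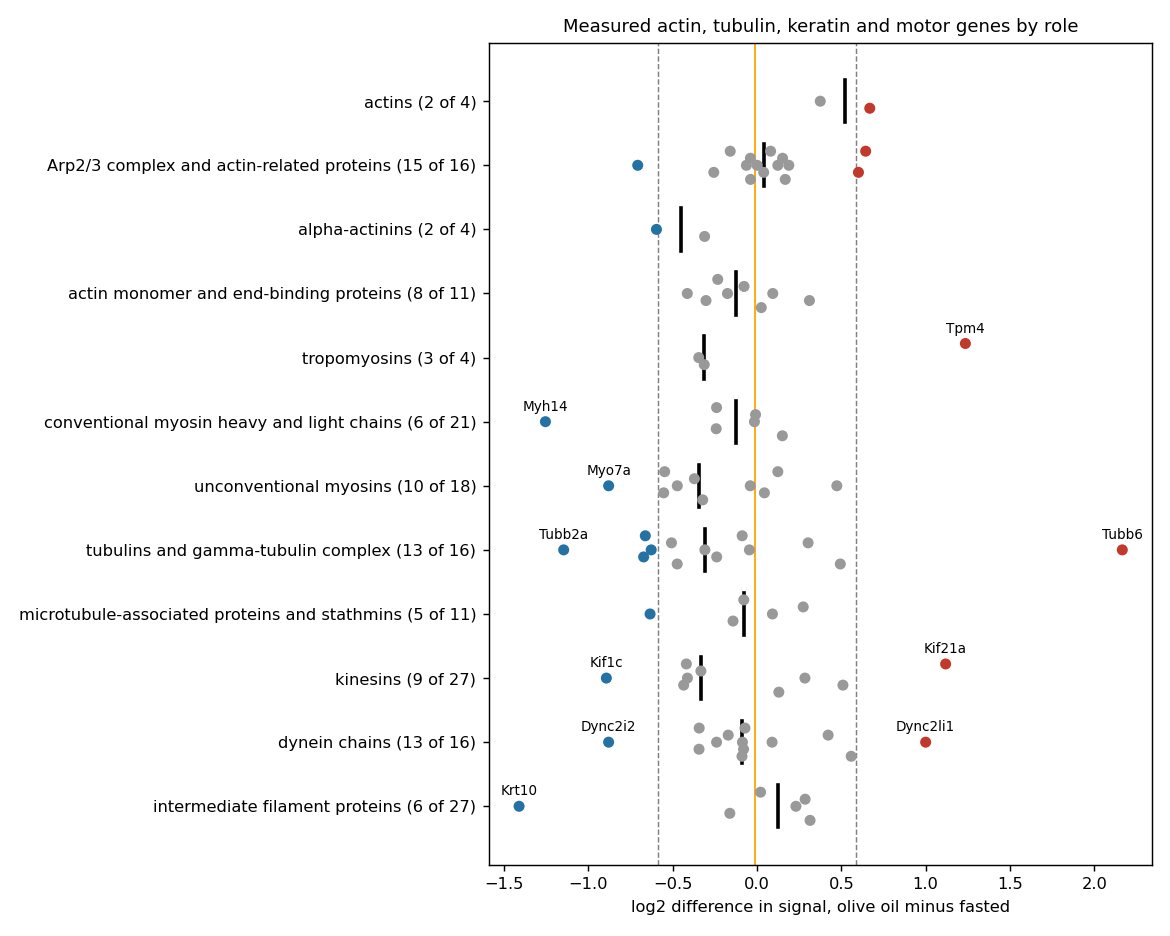
Log2 difference in signal between the olive oil and the fasted array (horizontal axis) for each of the 92 measured genes, by role; points are genes, red at least 1.5-fold higher and blue at least 1.5-fold lower, black bars are role medians, dashed lines mark 1.5-fold and the orange line the median of all measured genes. Labels give measured of all genes per role; most points lie between the dashed lines, and Tubb6 stands farthest to the right at 2.17.

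The arrays were alike in median signal, 42.5 fasted and 44.7 after olive oil. Hepatocyte markers were bright on both arrays, and all 9 analysed differed by less than 1.5-fold, with a median of -0.01. RNA integrity can be read from control probe sets along beta-actin: the 3' to 5' signal ratio was 2.63 on the fasted and 3.20 on the olive oil array. Its part in the differences below was not tested.

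Tubulins differed in both directions. Past 1.5-fold, the 13 measured of 16 tubulin and gamma-tubulin complex genes had 1 higher and 4 lower members, against background shares of 9.46% higher and 10.1% lower. Of the 13 differences 76.9% were negative, against 51.7% over all measured genes. Their median was -0.31, and it was negative after each of the 3 other scalings too. The 7 measured alpha- and beta-tubulins alone had a median of -0.09, with 1 higher and 2 lower past 1.5-fold. The 5 gamma-tubulin complex genes had a median of -0.51, with 2 lower. Tubb6 and Tubb2a both encode beta-tubulin, one partner of the tubulin dimer, and stood at opposite ends. Their promoters, 250 bases before to 50 after the RefSeq start site on the GRCr8 assembly, are shown with that of Tpm4 to set side by side the beta-tubulin genes that differed in opposite directions and the tropomyosin gene whose probe sets agreed. Capitals mark matches, on either strand, to 3 motifs: the TATA box, searched as TATAAA, the CCAAT box, searched under its own letters, and the GC box, searched as GGGCGG. No matches overlap in these windows.
Tubb6 (chr18:63213037-63213336, plus strand): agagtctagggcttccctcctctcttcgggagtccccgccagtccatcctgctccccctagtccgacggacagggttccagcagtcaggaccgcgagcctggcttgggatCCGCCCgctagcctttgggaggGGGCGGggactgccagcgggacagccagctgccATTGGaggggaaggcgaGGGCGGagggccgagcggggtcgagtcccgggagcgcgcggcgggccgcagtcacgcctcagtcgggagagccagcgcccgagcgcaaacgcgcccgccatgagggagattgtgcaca
Tubb2a (chr17:31001936-31002235, plus strand): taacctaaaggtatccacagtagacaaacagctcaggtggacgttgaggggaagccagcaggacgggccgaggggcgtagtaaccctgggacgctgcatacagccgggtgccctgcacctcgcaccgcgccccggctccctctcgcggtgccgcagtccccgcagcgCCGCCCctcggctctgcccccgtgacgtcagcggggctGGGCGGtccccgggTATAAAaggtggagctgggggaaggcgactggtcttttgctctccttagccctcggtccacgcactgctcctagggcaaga
Tpm4 (chr16:17732434-17732733, minus strand): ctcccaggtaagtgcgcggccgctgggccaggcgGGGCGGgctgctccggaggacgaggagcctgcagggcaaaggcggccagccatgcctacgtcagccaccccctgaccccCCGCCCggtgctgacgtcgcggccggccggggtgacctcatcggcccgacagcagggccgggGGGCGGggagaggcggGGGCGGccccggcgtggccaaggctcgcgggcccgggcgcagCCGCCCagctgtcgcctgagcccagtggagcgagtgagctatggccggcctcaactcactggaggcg
The Tubb2a window held TATAAA starting at base -31, and the windows of Tubb6 and Tpm4 held no such letters. GGGCGG was found 3 times in Tubb6, 2 times in Tubb2a and 5 times in Tpm4. A promoter was matched for 143 of the 175 genes and for 77 of the 92 measured ones. The table also holds noncoding genes, and the first promoter listed for a gene was read. Of these 77, 66.2% held GGGCGG, against 34.9% of all 27457 promoters in the table and 43.1% of the 19005 promoters of protein-coding genes. The share was 58.0% over the 143, measured or not. It was 42.9% of the 7 higher and 44.4% of the 9 lower genes with a promoter. Neither background was limited to measured genes, as the 77 were, so the part of the filter in this share was not tested. CCAAT stood in 44.2% of the 77, against 37.7% of all promoters. TATAAA stood in 10.4% of them and in 14.3% of all promoters. The CArG box, the binding motif of serum response factor, was found in 7 of the 143, or 4.90%, and in 2 of the 77, Actg1 and Myo1e, or 2.60%, against 1.64% of all promoters. A match describes letters and not a bound site.

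The signal of Tubb6 was 34.2 on the fasted and 153.5 on the olive oil array. Its fasted value was under the signal that counted as measured, so the gene passed the filter through its higher array. A dim probe set of the same gene stood at 6.8 and 14.1. The log2 difference of 2.17 was 1.76 with an offset of 16 added to all signals and 1.82 with a floor at the 50th percentile. Tubb2a went the other way, from 2582 fasted to 1166 after olive oil, on its only probe set. RefSeq lists Tubb2al1, a gene named for its likeness to Tubb2a, next to it on the chromosome, and whether the probe set also binds its transcripts was not tested. Tubb2b, the next tubulin gene along, was not measured, at 47.1 and 28.7. Tuba4a, an alpha-tubulin, the other partner of the dimer, had signals of 1025 and 647.5, 1.58-fold lower. Tubb5, the widely expressed beta-tubulin, had nearly the same difference on both its probe sets, -0.47 and -0.47, with 457.1 and 329.2 on the brighter. Tubb4b lay close to equality at 1577 and 1528. Tubb4a, known from brain, had 124.7 and 175.6 on its brightest probe set, a difference of 0.49. Differences were 1.17 and 1.43 on 2 others, which by their Affymetrix suffix can also bind transcripts of other genes. Tubb1, the platelet form, differed by -0.09. The beta-tubulin genes thus included both the most positive and the most negative difference among the 13 measured genes of this role.

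The gamma-tubulin complex, which starts new microtubules at the centrosome, had negative differences for each of its 5 measured genes, 2 of them past 1.5-fold. Over all measured genes, 51.7% of differences were negative and 10.1% were at least 1.5-fold lower. The grouping was made after the values were seen. Tubgcp3 went from 97.7 to 61.3, 1.59-fold lower, and Tubgcp2 from 145.4 to 94.1, 1.55-fold lower. Both were under 1.5-fold with the offset of 16, at -0.56 and -0.55 on the log2 scale. Gamma-tubulin itself, Tubg1, stood at 296.4 and 208.5, a difference of -0.51. Tubgcp4 and Tubgcp6 differed by -0.31 and -0.24. Tube1, the epsilon-tubulin of centrioles, had measured probe sets of opposite sign, 0.30 and -0.66.

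Among proteins that bind microtubules, Map4, the main such protein outside neurons, was lower on both measured probe sets. Its brighter one went from 275.4 to 177.4, 1.55-fold lower, and the other had a difference of -0.90, while a dim further one stood at 15.6 and 47.4. Map7, which recruits kinesin-1, had positive differences on all 3 probe sets, between 0.26 and 0.70. Stmn1, a protein that takes tubulin dimers out of the pool, differed by -0.14, at 307.4 and 278.5, and Map6 by -0.08. Of the 11 genes of this group, 5 were measured, 1 of which was at least 1.5-fold lower. Map1s, a light microtubule-binding protein, was not measured, with 17.0 on the fasted and 72.5 on the olive oil array.

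Kinesins, motors that mostly walk toward the plus ends of microtubules, gave 1 gene past 1.5-fold in each direction out of 9 measured of 27. Background shares were 9.46% higher and 10.1% lower. Kif21a, a regulator of microtubule growth, went from 156.1 to 338.9, 2.17-fold higher. Kif1c, a motor of Golgi and vesicle traffic, went from 204.0 to 109.8, 1.86-fold lower. Kif5b, the conventional kinesin heavy chain of most tissues, stood at 369.4 and 525.8, with differences of 0.51 and 0.24 on 2 probe sets. Kif16b, which moves early endosomes, had negative differences on its 3 measured probe sets, from -0.69 to -0.32. Kif13a was nearly equal on its brightest probe set, at 0.13, and differed by 0.94 on a dimmer one, with 0.53 for the mean of its probe sets. All 10 analysed kinesins of mitosis were too dim to be measured, with signals from 3.5 to 44.4. The 10 markers of dividing cells had signals of 0.6 to 52.4. Of these, 2 were measured, with differences of -0.55 and -0.51, and the list summed to 303.7 fasted and 219.1 after olive oil.

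Dynein chains, of the motor that walks toward the minus ends, had 11 of 13 measured genes within 1.5-fold and a median of -0.09. Dync1h1, the heavy chain of cytoplasmic dynein, stood at 292.1 and 310.7, a difference of 0.09. The other 3 measured chains of this motor, Dync1i2, Dync1li1 and Dync1li2, lay between -0.09 and -0.08. Light chains ranged more widely, from -0.34 for Dynlt3 and Dynll2 through -0.07 for Dynlrb1 to 0.56 for Dynlt1. A second probe set of Dynll2 differed by -0.01, at 826 and 822. The 2 genes past 1.5-fold belonged to dynein-2, the motor of transport inside cilia. Dync2li1 went from 33.3 to 66.6, 2.00-fold higher, and Dync2i2 from 74.0 to 40.2, 1.84-fold lower. Both were under the measured level on 1 array. The difference of Dync2li1 was 0.61 when the floor was at the 50th percentile.

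**Figure D2:**
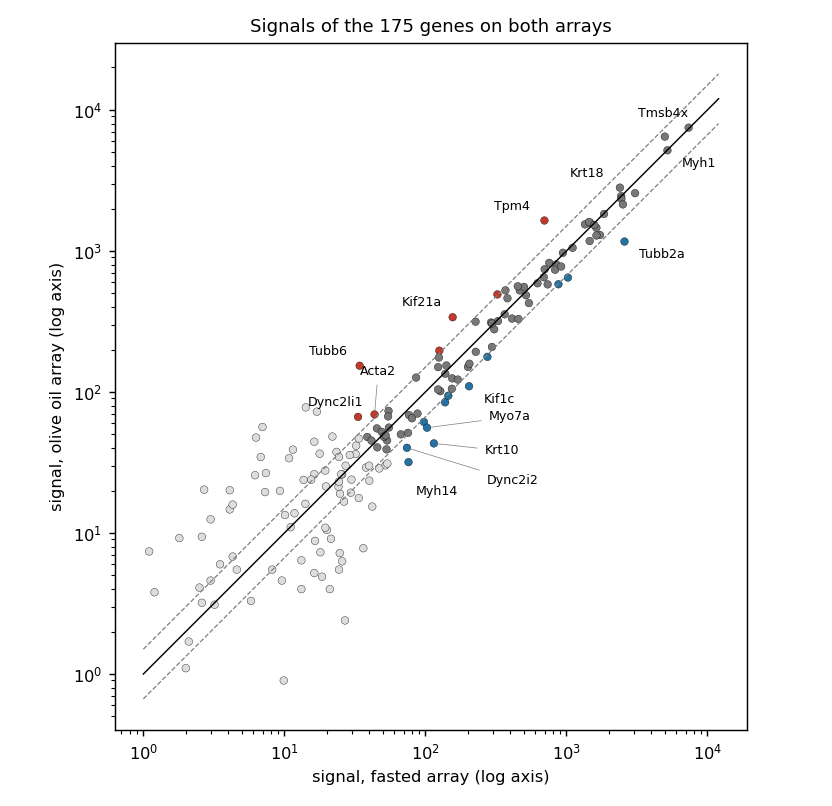
Signal on the fasted array (horizontal, log axis) against signal on the olive oil array (vertical, log axis) for all 175 genes; light grey points were not measured, dark grey lay within 1.5-fold (dashed lines), red were at least 1.5-fold higher and blue at least 1.5-fold lower. Most bright genes, such as Tmsb4x, at 7355 and 7484, lie near the line of equality. Tpm4, Tubb2a, Tuba4a and Actn4 are among the exceptions, and the dim genes scatter widely around that line.

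Actin genes could be followed only in part. Actb, the beta-actin gene, had no probe set of its own, as was the case for Tuba1a, Cfl1 and Tmsb10. The beta-actin control probe sets of the array differed by 0.12 at the 3' end, -0.16 in the middle and -0.17 at the 5' end. Over 28 probe sets annotated to several genes, at least 1 of them cytoskeletal by symbol, 16 were measured and none was past 1.5-fold, with differences from -0.56 to 0.53. Actg1, the other cytoplasmic actin, had 4988 and 6468 on its brightest probe set, a difference of 0.37, and 0.12 on its second. Acta2, the smooth muscle actin of vessel walls and activated stellate cells, was dim at 43.6 and 69.3, 1.59-fold higher, and under 1.5-fold with the offset of 16, at 0.52.

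Markers of smooth muscle, of stellate cells and of other cell types stood beside Acta2 as follows. The background shares were 9.46% at least 1.5-fold higher and 10.1% lower. Of the 8 smooth muscle markers, 3 were measured, 1 of which, Acta2 itself, was at least 1.5-fold higher. The summed signal of all 8 was 279.9 fasted and 333.9 after olive oil, and Lmod1 was below the floor of 12.8 on both arrays. Of 13 measured stellate cell and fibroblast markers, 2 were at least 1.5-fold higher and 1 lower, and the 14 analysed markers summed to 4484 and 4854. Des, desmin of stellate and muscle cells, differed by 0.29 at 45.3 and 55.2. Vim, the intermediate filament protein of cells other than epithelia, differed by 0.31 at 451.9 and 561.9. Endothelial markers had 2 of 8 measured genes at least 1.5-fold higher and none lower, with summed signals of 4677 and 5352. Of 8 Kupffer cell and macrophage markers none was past 1.5-fold, with sums of 5947 and 6302. Of the 8 neutrophil markers, 4 had a probe set of their own and 2 were measured. These were S100a8 and S100a9, both higher, at 32.0 and 75.7 and at 62.9 and 253.1. The fasted value of S100a8 was under 41.4, so it passed the filter through its higher array. Csf3r was below the floor on both arrays. The summed signal of that list was 103.7 fasted and 354.0 after olive oil. The part of other cell types in the cytoskeletal differences was not tested.

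The Arp2/3 complex, which starts side branches on actin filaments, was measured for 8 of the 9 analysed genes of its subunits. Its Arpc4 subunit went from 324.2 to 491.9, 1.52-fold higher, and under 1.5-fold with the array medians set equal, at 0.53, or with the offset, at 0.58. Actr2, one of its actin-like cores, was the measured gene nearest to equality, at 2446 and 2447. Arpc3 and Arpc1b differed by 0.19 and 0.15, and Arpc5 by -0.06. Arpc2 had probe sets of opposite sign, -0.26 and 0.05. Actr6, a nuclear actin-related protein of chromatin remodelling, went from 125.6 to 196.3, 1.56-fold higher, and under 1.5-fold with the array medians set equal, at 0.57, or with the offset, at 0.58. Actr2-ps1, annotated as a pseudogene of Actr2, went from 138.0 to 84.5, 1.63-fold lower, and whether its probe set also binds transcripts of Actr2 was not tested. The median of the 15 measured genes of this role was 0.04, and -0.03 with the array medians set equal.

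Proteins that bind actin monomers or filament ends showed no gene past 1.5-fold among 8 measured of 11. Tmsb4x, thymosin beta 4, which keeps monomers in reserve, stood at 7355 and 7484, a difference of 0.03 that was -0.05 with the array medians set equal. Pfn1, profilin, which hands monomers to growing ends, stood at 2514 and 2139, a difference of -0.23. Cfl2, a cofilin that severs old filaments, had the largest difference of the 8, -0.41 at 1728 and 1298, with -0.13 on its second probe set. The capping protein subunits Capza1, Capza2 and Capzb lay between -0.18 and 0.09. Pfn2 was dim, at 38.7 and 48.0.

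Alpha-actinins tie actin filaments into bundles, and of the 2 measured ones 1 was at least 1.5-fold lower, against 10.1% of all measured genes. Actn4 went from 877.6 to 580.4, 1.51-fold lower, a size so near the limit that it fell short of it after loess normalization and with the offset, both at -0.58. Actn1 had differences of -0.31 and -0.71 on its 2 probe sets. The muscle forms Actn2 and Actn3 were not measured, with no signal above 30.0.

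Tropomyosins, which coat actin filaments and set which myosins can bind them, were unlike one another. Tpm4 went from 698.4 to 1644 on its brightest probe set and from 215.3 to 461.6 on the other, with log2 differences of 1.24 and 1.10. It was one of 2 genes past 1.5-fold that had a second measured probe set, the other being Map4, and in both genes the probe sets had one sign. Tpm1 had negative differences on all 4 measured probe sets, from -0.83 to -0.34. Tpm3 had 9 measured probe sets, with differences from -0.31 to 0.80 and of 0.06 on average, so that its sign depended on the probe set. Tpm2, the muscle form, was not measured.

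**Figure D3:**
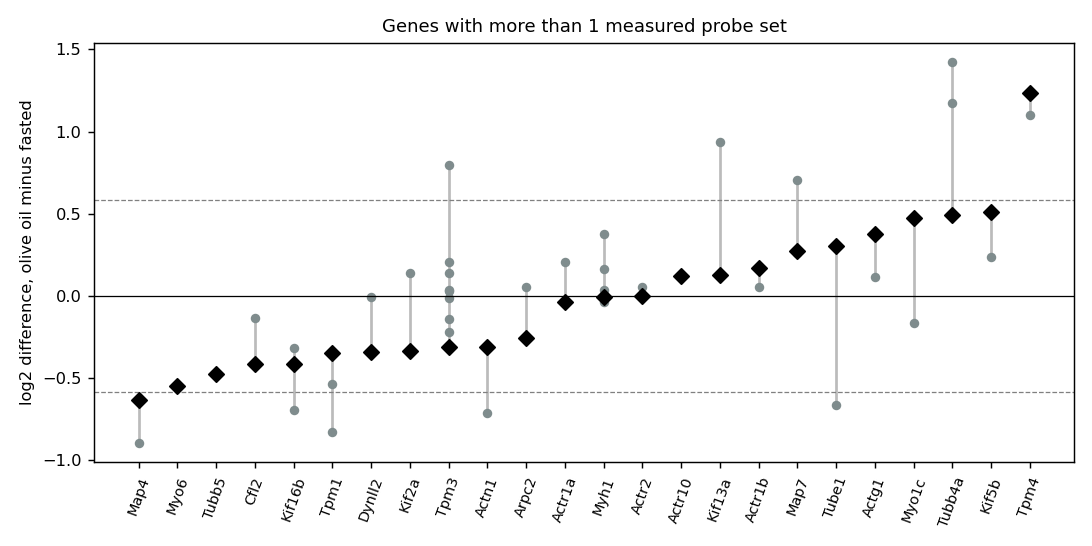
Log2 differences (vertical axis) of every measured probe set of the 24 genes that had more than 1; each dot is a probe set, black diamonds mark the brightest one, which represents the gene, grey lines join a gene's probe sets and dashed lines mark 1.5-fold. The 2 probe sets of Tpm4 lie together at 1.10 and 1.24, whereas those of Tpm3 and Tube1 lie on both sides of 0.

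The agreement of probe sets gives the only measure of error within these arrays. Over the 24 cytoskeletal genes with at least 2 measured probe sets, the differences of one gene scattered with a pooled standard deviation of 0.29, and over 2290 genes of the arrays with 0.35. In 16 of the 24 genes all probe sets had one sign, and in 8 they had both. Of the 19 genes past 1.5-fold, 17 had a single measured probe set. This scatter covers probes and not rats.

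Conventional myosins pull on actin filaments in muscle and, as nonmuscle forms, in every cell. Of the nonmuscle heavy chains, Myh9 stood at 917.3 and 775.5, a difference of -0.24. Myh14 went from 75.9 to 31.8, 2.39-fold lower, and was under the measured level on the olive oil array. Its difference was -0.80 when the floor was at the 50th percentile. The light chains Myl12a and Myl12b differed by 0.15 and -0.02, and Myl9 by -0.24. Myh1, by annotation the heavy chain of fast skeletal muscle, had 5 probe sets between 438.8 and 5204 on the fasted array and between 568.6 and 5172 on the olive oil array. The other 8 striated muscle markers had signals of 1.7 to 44.9, and the other 13 skeletal and cardiac myosin chains 1.1 to 36.3. Which transcript the Myh1 probe sets bind was not tested, and its brightest one differed by -0.01.

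Unconventional myosins, which carry membranes along actin, had 1 of 10 measured genes at least 1.5-fold lower and 9 between, against a background of 10.1%. Their median difference was -0.35, and 7 of the 10 differences were negative, against 51.7% of all measured genes. Myo7a went from 102.7 to 55.8, 1.84-fold lower. Myo6, the myosin that walks inward from the cell surface in endocytosis, had differences of -0.55 and -0.56 on 2 probe sets, at 154.1 and 105.4 on the brighter. Myo10 and Myo18a differed by -0.55 and -0.47, and Myo5b, a motor of recycling endosomes and of the canalicular membrane, by -0.32. Myo1e was nearly equal at 138.4 and 134.6. Myo1c had its probe sets on both sides of 0, at 0.47 and -0.17. The median was negative after each of the 3 other scalings, 0.26 over the 2 genes left by a filter at the 75th percentile, and -0.02 with no filter.

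Keratins and their relatives were measured for 6 of 27 genes. The hepatocyte pair differed in sign and little in size: Krt8 stood at 1631 and 1458, a difference of -0.16, and Krt18 at 2395 and 2811, a difference of 0.23. Krt10 went from 114.9 to 43.2, and its difference of -1.41 was -1.14 with the offset. Krt79 was equal within 0.02, and -0.05 with the array medians set equal. The bile duct keratins were not measured, Krt7 with 7.3 and 19.5 and Krt19 with 52.1 and 30.2. The 7 analysed bile duct markers, these 2 among them, summed to 313.8 and 250.8. The 21 keratins that were not measured had signals of 1.2 to 77.8, the highest being Krt17, at 14.2 fasted and 77.8 after olive oil. Krt4 and Krt23 were of the same kind, at 7.0 and 56.4 and at 6.3 and 47.5. These 3 were named after their values were seen.

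The 83 genes that were not measured had a median signal of 16.3 on the fasted and 17.7 on the olive oil array, and 19 of them were at or below the floor of 12.8 on both. For 8 of them the olive oil array alone was above 41.4, and for 4 the fasted array alone. With no filter, 27 of 175 genes were higher by at least 1.5-fold and 29 lower, 15.4% and 16.6%, against 12.8% and 12.4% of all genes. Conversely, 7 measured genes were under 41.4 on 1 array, namely Dync2i1, Dync2i2, Dync2li1, Kif5a, Myh14, Pfn2 and Tubb6.

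Genes that regulate the cytoskeleton were followed in 6 further lists, each read against the background shares of 9.46% and 10.1%. Past 1.5-fold, 7 of 62 measured actin regulators were higher and 8 lower, and their median was -0.12. Wasl, which switches on the Arp2/3 complex, went from 1014 to 2051, 2.02-fold higher, with 3 probe sets between 0.78 and 1.12. Lasp1, an actin-bound adaptor, went from 1263 to 619.5, with -1.03 on both probe sets. Csrp1, a LIM protein of actin bundles, was 2.04-fold lower, and Cnn3, a calponin, 1.81-fold lower.

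Serum response factor, with cofactors that sense the pool of actin monomers, drives many cytoskeletal genes. Of 18 measured members of that list, 4 were at least 1.5-fold higher and 2 lower, and the median was -0.11. Ccn2, connective tissue growth factor, was the highest at 102.9 and 498.8. Fhl2 and Junb were 1.71-fold and 1.64-fold higher, with a difference of 0.30 on another probe set of Fhl2, while Csrp1 belongs to this list too. Elk1, also counted as higher, had measured probe sets of opposite sign, 0.64 and -0.50. The same held for Srf, the gene of the factor itself, at 0.58 and -0.38. Members of this list thus lay past 1.5-fold on both sides.

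Partners of motors and tubulin formed 2 lists. Of 25 partners of dynactin, dynein and kinesin, 1 was at least 1.5-fold higher, Trak1, a mitochondrial adaptor of kinesin, at 336.5 and 536.3. None was at least 1.5-fold lower on its brightest probe set, where Klc1, a kinesin light chain, was at -0.54, with up to 0.44 on another. Pafah1b1 and Mapk8ip1 were at 0.17 and 0.09 on their brightest probe sets, but at -0.88 and -0.84 on another. Dctn1, the large dynactin subunit, differed by 0.44 and the dynein regulator Ndel1 by -0.34. Of 26 genes for tubulin folding and microtubule control, Tppp, a microtubule-bundling protein, was 2.14-fold lower, at 179.3 and 83.8. Ttl, the ligase that puts tyrosine back on tubulin, was 1.62-fold lower. Hdac6, a deacetylase of tubulin, was 1.55-fold higher. Atat1, the acetylase of tubulin, differed by -0.56 on its brightest and -0.07 on another probe set.

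The chaperonin and prefoldin genes, which fold actin and tubulin, had 1 of 15 measured genes past 1.5-fold, Pdcl3, a chaperonin cofactor, at -0.67 on its brightest and -0.13 on another probe set. The prefoldin subunits Pfdn4, Pfdn1 and Pfdn6 differed by 0.49, 0.28 and -0.34. Of 17 measured filament anchors and lamins, 1 was past 1.5-fold, the intermediate filament protein gene Synm at 150.3 and 96.6. Dst, a linker between filament systems, differed by 0.57, Pkp2, a desmosome plaque protein, by 0.47 and Lbr, the lamin B receptor, by 0.44.

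**Figure D4:**
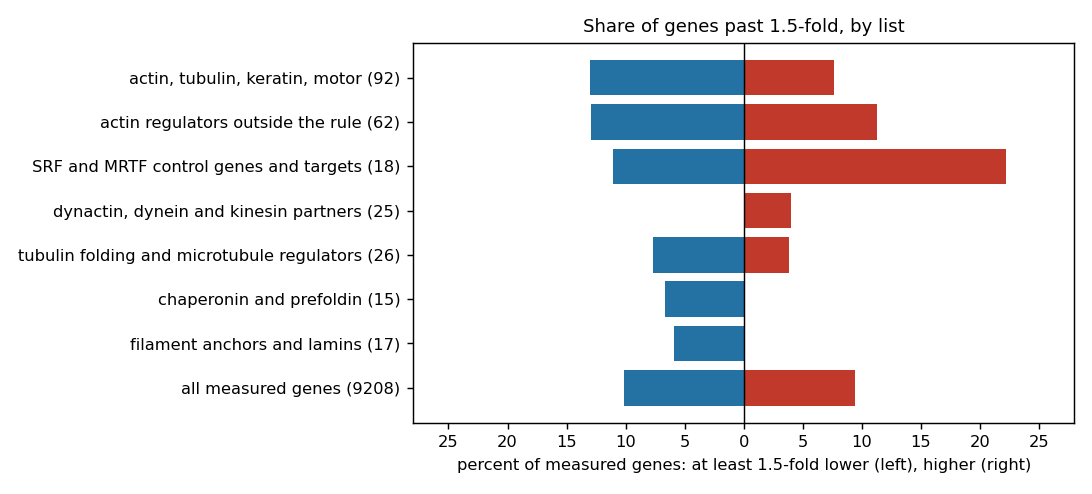
Percent of measured genes lower (blue, to the left) and higher (red, to the right) by at least 1.5-fold in the cytoskeletal genes, 6 lists of regulators and partners, and all measured genes, with the number of measured genes in brackets. The cytoskeletal bars, 13.0% and 7.61%, are close to those of all 9208 genes. No partner of dynactin, dynein and kinesin was at least 1.5-fold lower on its brightest probe set.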

How the data were processed

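The authors deposited linear signal intensities, 1 for each probe set on each array. They were made with Affymetrix Expression Console, per the submitters' processing notes. Its algorithm is not given in the sources used here. No detection calls were used.

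The 57 control probe sets were set apart. In the remaining 31042, values under the 25th percentile, 12.8, were set to it before the log2 was taken. Probe sets with a mean log2 signal of at least the median, 5.37, counted as measured (15521). Of the 31042, 20826 had 1 gene in the platform annotation, 436 several and 9780 none listed; gene IDs of 20758 were found in a RefSeq table (GRCr8), which changed 0 symbols. A test needs more than the 1 array each group had. The number of arrays limits the precision.

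The members and lists were chosen with earlier results of these data known. Genes named were measured members at least 1.5-fold different, the largest and smallest difference of each of 12 roles, 18 fixed genes, and up to 4 genes per regulator list; others illustrate probe sets or dim genes and were chosen after their values were seen. Promoters came from RefSeq.

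Alternatives were other scalings (array medians, quantile, loess), floors, an offset, filters, probe set rules, symbols as given and a 2-fold size. Functions were tested on simulated data, with changes placed only in bright probe sets, so changes in dim genes were not covered. Tables were handled with pandas 2.3.3 and numpy 2.4.6 in Python 3.11.15, loess came from statsmodels 0.14.6 and figures from matplotlib 3.10.9, with scipy 1.17.1 for ranks.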

Additional observations from a re-analysis of the deposited data

How the results depend on the processing

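The counts of 7 higher and 12 lower genes stayed within 1.5 times under the scalings, floors and probe set rules tried, except as follows. With an offset of 16, 4 genes were at least 1.5-fold higher. With no filter on dim probe sets 27 were higher and 29 lower, and the median difference was 0.0. With a filter at the 75th percentile, 3 were higher and 4 lower among 51 measured genes. At 2-fold, 4 were higher and 3 lower. With the array medians set equal, the median moved from -0.08 to -0.15, and that of all measured genes from -0.01 to -0.09.

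Of 402 values of 42 named genes under alternatives, 396 moved by less than 0.35, the scatter between probe sets of one gene. The other 6 moved by more, and none past 1.5-fold changed sign. Many of these values could not move, since a filter only selects genes and removing the floor left these genes unchanged. Setting the array medians equal shifted all of them alike. The 396 are therefore no measure of robustness. With the stricter filter the medians of unconventional myosins and kinesins were 0.26 and 0.81, over 2 genes each; that of tropomyosins was 0.06 with the mean over probe sets and 0.35 with no filter. With the floor at the 50th percentile that of microtubule-associated proteins and stathmins was 0.01 in place of -0.08. No paired analysis was possible because each group was 1 array. Dim signals limit what can be said of the genes that were not measured.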
